A study of Mus musculus with 8 samples.

Results

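TGF-beta and BMP signalling in rib chondrocytes was described through 47 genes, grouped as 16 ligands and ligand-binding proteins, 10 receptors, 8 SMADs, 9 antagonists and 4 response genes. The genes were chosen by symbol for their roles in these pathways, with earlier results of these data known. Each was matched to 1 of the 52325 Ensembl identifiers in the data, so that all 47 were found. RNA-seq compared rib (costal) chondrocytes of 7-d-old mice, 4 libraries labelled wild-type and 4 labelled *Mir140*-null, all on a C57BL/6J background. The null mice carry a CRISPR/Cas9 deletion of *Mir140* in every cell of the body, not only in cartilage, and lack each miRNA made from that locus. The founders were of a mixed background and were backcrossed, and heterozygous animals were crossed to give a wild-type and a null line, so that line and genotype cannot be told apart. Chondrocytes were released by collagenase digestion, and expression was given as TPM (transcripts per a fixed library total, 1000000, scaled by transcript length). The labels do not say whether animals were pooled or litters shared, so p-values measure the spread between these libraries.

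Ligands of the TGF-beta family bind a pair of type II and type I receptor kinases. TGF-beta and activin ligands lead to phosphorylation of SMAD2 and SMAD3, and most BMP and some GDF ligands to that of SMAD1, SMAD5 and SMAD9. Either set then binds SMAD4, and the complex moves into the nucleus. Both branches shape cartilage: BMP signalling promotes chondrocyte formation and maturation, while TGF-beta signalling sustains matrix production and restrains hypertrophy. Secreted antagonists such as gremlin and noggin hold BMP ligands away from their receptors. Several latent TGF-beta binding proteins, though not all, hold TGF-beta in the matrix, and the *Id* genes are immediate transcriptional targets of BMP signalling. *Smad3* and *Bmp2* are published targets of miR-140, a miRNA that is abundant in cartilage. The values given here are of mRNA, and an effect on protein alone would not show in them.

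The sequences through which the miRNA could pair with these genes are short. A miRNA pairs through its seed, bases 2 to 8, and miR-140-3p occurs as miR-140-3p.2, the annotated form, and miR-140-3p.1, which starts 1 base later. The annotated form lies on chr8:107551288-107551308 (GRCm38, plus strand) within *Mir140*. The RefSeq sequence and the form obtained by starting 1 base later are printed with the seed in capitals, because they set the sites searched for.
miR-140-3p.2: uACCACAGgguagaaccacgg
miR-140-3p.1: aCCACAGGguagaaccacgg
For each gene the longest 3′UTR in GENCODE M21 (GRCm38) was searched on the transcribed strand for CTGTGGT or TGTGGTA (miR-140-3p.2) and for CCTGTGG or CTGTGGA (miR-140-3p.1). An 8mer holds both words of a form. The 7-base words overlap, and a C before CTGTGGT makes a match to both forms.

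Sites in the genes that differed between genotypes, the 8mers of the other genes and a site of *Smad3* are shown in 30-base windows of the 3′UTR exons, with GRCm38 positions and the matched bases in capitals. A 7m8 site matches seed bases 2 to 8, and a 7a1 site matches bases 2 to 7 and is followed by A.
*Tgfb2* miR-140-3p.1 7a1, chr1:186624741-186624770, minus strand: aagcaagtcttCTGTGGAaaaatcaaagcc
*Bmp6* miR-140-3p.1 7a1, chr13:38499583-38499612, plus strand: atcagcaggctCTGTGGAggtgccttctgt
*Inhba* miR-140-3p.1 7m8, chr13:16028980-16029009, plus strand: acaagttatccCCTGTGGggaaaaatggga
*Inhba* miR-140-3p.1 7m8, chr13:16030795-16030824, plus strand: aaatatgatttCCTGTGGgccttttggcaa
*Inhba* miR-140-3p.2 7m8, chr13:16028447-16028476, plus strand: aaacagtctgtCTGTGGTtggtattgttca
*Tgfbr2* miR-140-3p.1 7a1, chr9:116085013-116085042, minus strand: catgctctgttCTGTGGAtgatactcaggt
*Tgfbr2* miR-140-3p.2 7m8, chr9:116086500-116086529, minus strand: gtcccctatctCTGTGGTctgttcctgagc
*Smad1* miR-140-3p.2 7m8, chr8:79342058-79342087, minus strand: gggtgtttgaaCTGTGGTcgaggcacaggg
*Smad1* miR-140-3p.2 7m8, chr8:79343041-79343070, minus strand: gtagcttaaatCTGTGGTcatgctatgaga
*Smad5* miR-140-3p.1 7m8, chr13:56739591-56739620, plus strand: atatacagacgCCTGTGGgtaggcagtact
*Smad5* miR-140-3p.1 7a1, chr13:56741367-56741396, plus strand: cttggacagttCTGTGGActtgggtgggtt
*Smad5* miR-140-3p.2 7m8, chr13:56739515-56739544, plus strand: cccaacctattCTGTGGTcagtaaatggag
*Grem1* miR-140-3p.1 7m8, chr2:113749419-113749448, minus strand: gtgcatgggtgCCTGTGGgtgtttccaaac
*Smad3* miR-140-3p.1 7m8, chr9:63648912-63648941, minus strand: tcctgcaggagCCTGTGGcatatttccagc
*Tgfb3* miR-140-3p.2 8mer, chr12:86057588-86057617, minus strand: tttgagaatcaCTGTGGTAaagaaagtgtg
*Ltbp1* miR-140-3p.1 8mer, chr17:75391075-75391104, plus strand: aagttgtctgtCCTGTGGAgcaggcagtaa
*Bmpr2* miR-140-3p.1 8mer, chr1:59871627-59871656, plus strand: gcatgccgattCCTGTGGAataaaggcttg
*Bmpr2* miR-140-3p.1 8mer, chr1:59878784-59878813, plus strand: agaacctgggtCCTGTGGAagagcccccag
Of the 46 genes that passed the expression filter, 17 (37.0%) held a miR-140-3p.2 site and 19 (41.3%) a miR-140-3p.1 site. Over the 12988 tested genes with a 3′UTR the shares were 24.9% and 30.3%. The 3′UTRs of the 46 genes were also longer, with a median of 1949 bases against 1159 bases for all tested genes. Within the first 1000 bases, 8 of the 46 genes (17.4%) held a miR-140-3p.2 site and 8 (17.4%) a miR-140-3p.1 site, beside 14.0% and 19.2% of all tested genes. *Ltbp4*, with a 3′UTR of 260 bases, *Smad4* and *Id1*, *Id2* and *Id3* held no match to either form. Genes with a miR-140-3p.2 site had a median log2 fold change (log2FC) of 0.27, and those without one 0.11. For miR-140-3p.1 the medians were 0.27 and 0.12. The order turned in the first 1000 bases, where the medians with and without a site were 0.14 and 0.20 for miR-140-3p.2, and -0.20 and 0.22 for miR-140-3p.1. No match in this window says only that these letters are not there, and a match is not proof of a functional site.

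TPM keep no read counts, and the depth behind the values is unknown. *Mir140* itself was listed at 0 TPM in 7 of the 8 libraries and reached 8.87 TPM in 1, labelled *Mir140*-null replicate 2. The cause of that value was not tested. The libraries were made from poly(A) RNA, so these TPM do not measure the mature miRNAs and cannot check the labels. Each direction given here rests on the labels. The paper reports PCR checks of genotype. It also reports that the mature miRNAs differed by genotype in PCR run in part on RNA of these samples. In its principal component analysis of TPM the genotypes lay apart. These checks were not repeated here. Some libraries stood apart. The libraries labelled *Mir140*-null replicates 1 and 2 had 15800 and 16056 genes at 0.5 TPM or more, and the other 6 had 16991 to 17950. Markers of fibroblasts and perichondrium summed to 345 and 348 TPM in them and to 1445 to 3022 TPM in the others. Mitochondrial genes took 4.06% to 6.99% of the TPM in wild-type and 8.41% to 10.1% in *Mir140*-null libraries. All 10 chondrocyte markers were detected in every library (sums of 42060 to 72610 TPM, lower in *Mir140*-null for 3 of the 10 and higher for 1). Markers of other cell types were present. Sums over all libraries were 35.6 to 107 TPM for muscle, 16.7 to 39.5 TPM for macrophages, 2.04 to 9.24 TPM for neutrophils, 27.6 to 76.2 TPM for adipocytes and 256 to 1854 TPM for erythroid cells. Most of the muscle sum was *Tnnt3*, of the macrophage sum *Cd68* and of the adipocyte sum *Fabp4*. Some members of these lists (3 of 8 for muscle, 3 of 6 for macrophages, 2 of 6 for neutrophils, 3 of 5 for adipocytes, 1 of 6 for erythroid cells) and *Dmp1* of the 8 osteoblast markers stayed under 0.5 TPM throughout, among them *Ckm*, *Adgre1*, *Mpo* and *Adipoq*.

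In *Mir140*-null chondrocytes 8 genes of the 46 were up-regulated and 1 was down-regulated (limma, adjusted by Benjamini-Hochberg, threshold 0.05). The up-regulated genes were the ligands *Bmp6*, *Inhba* and *Tgfb2*, the latent TGF-beta binding protein *Ltbp4*, the receptor *Tgfbr2*, and *Smad5*, *Smad1* and *Smad4*. The down-regulated gene was *Grem1*, a BMP antagonist. Some markers of other cell types moved with genotype too. Muscle markers summed to 69.6 to 107 TPM (wild-type) and 35.6 to 60.4 TPM (*Mir140*-null), and neutrophil markers to 2.04 to 5.82 and 6.82 to 9.24 TPM, with no overlap in either. *Tnnt3*, most of the muscle sum, overlapped by itself (40.4 to 73.1 and 28.4 to 54.4 TPM) and was not called. *Tnni2* of muscle and *Lyz2* of macrophages were called lower and *Camp* of neutrophils higher. *Mpo* of neutrophils, which was not tested, went the other way (wild-type 0.0756 to 0.428 TPM, *Mir140*-null 0.0394 to 0.0683 TPM). Their part in the differences was not tested, and in these bulk samples fewer cells of a type and less RNA per cell cannot be told apart. *Gdf6*, a BMP-type ligand of joints, was at 0.0303 TPM or less in every library and was not tested. Of all 17177 tested genes, 10.5% were up-regulated and 6.40% were down-regulated, beside 17.4% and 2.17% of the 46. Higher genes made up 62.0% of all calls, and 50.9% (1368 up-regulated, 1320 down-regulated) after median-ratio scaling, under which 8 and 1 of the 46 were called. The median log2FC of the 46 genes was 0.18, that of all tested genes -0.01, and 27 of the 46 had a positive and 19 a negative log2FC. The background depended on expression level. With only genes of a mean of at least 5 TPM tested, 1643 of 9668 were up-regulated and 605 down-regulated, with a median log2FC of 0.11. Under that filter 8 and 1 of 33 pathway genes were called, with a median of 0.24. Genotypes did not overlap in 12 genes (26.1%), close to the 25.9% of all tested genes. Of these, 10 were higher and 2 lower in *Mir140*-null, where 15.7% and 10.2% of all tested genes were. The predicted target lists used by the study are of human genes and were matched by symbol. *Bmp2*, *Nog*, *Smad2* and *Tgfbr1* stand there for miR-140-5p (8.7% of the 46, beside 2.08% of all tested genes). *Ltbp1* and *Tgfbr3* stand for miR-140-3p.1 (4.35% beside 3.04%), and *Acvr2b* and *Skil* for miR-140-3p.2 (4.35% beside 2.24%). The mouse 3′UTR of *Acvr2b* searched here held no miR-140-3p.2 site. None of the 8 listed genes was called between genotypes. For 1 of them, *Smad2*, the p from limma was under 0.05 before adjustment (0.0343).

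By role, 4 of 15 tested ligands (median log2FC 0.24), 1 of 10 receptors (0.26) and 3 of 8 SMADs (0.51) were up-regulated. None of 9 antagonists was up-regulated and 1 was down-regulated (median -0.08). None of the 4 *Id* genes was called in either direction (median -0.09), and none had an unadjusted limma p under 0.05, where 33.9% of all tested genes did. Under 17 other processing settings (pseudocount, filter, scaling, added terms or a library left out) the SMAD median stayed between 0.44 and 0.57, that of receptors between 0.14 and 0.39 and that of ligands between 0.08 and 0.29. The antagonist median ran from -0.27 to 0.05 and the *Id* median from -0.25 to 0.01, so neither has a direction that held under every setting. Leaving out wild-type replicate 3 left 4 up-regulated genes, and leaving out the library labelled *Mir140*-null replicate 2 left 5. Without both of the libraries labelled *Mir140*-null replicates 1 and 2, 6 libraries were left and only *Ltbp4* was called (1 up-regulated, 0 down-regulated). Of all tested genes, 2.34% were then up-regulated and 1.42% down-regulated. All 9 genes kept their direction, as they had to, because their genotypes did not overlap.

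**Figure D1:**
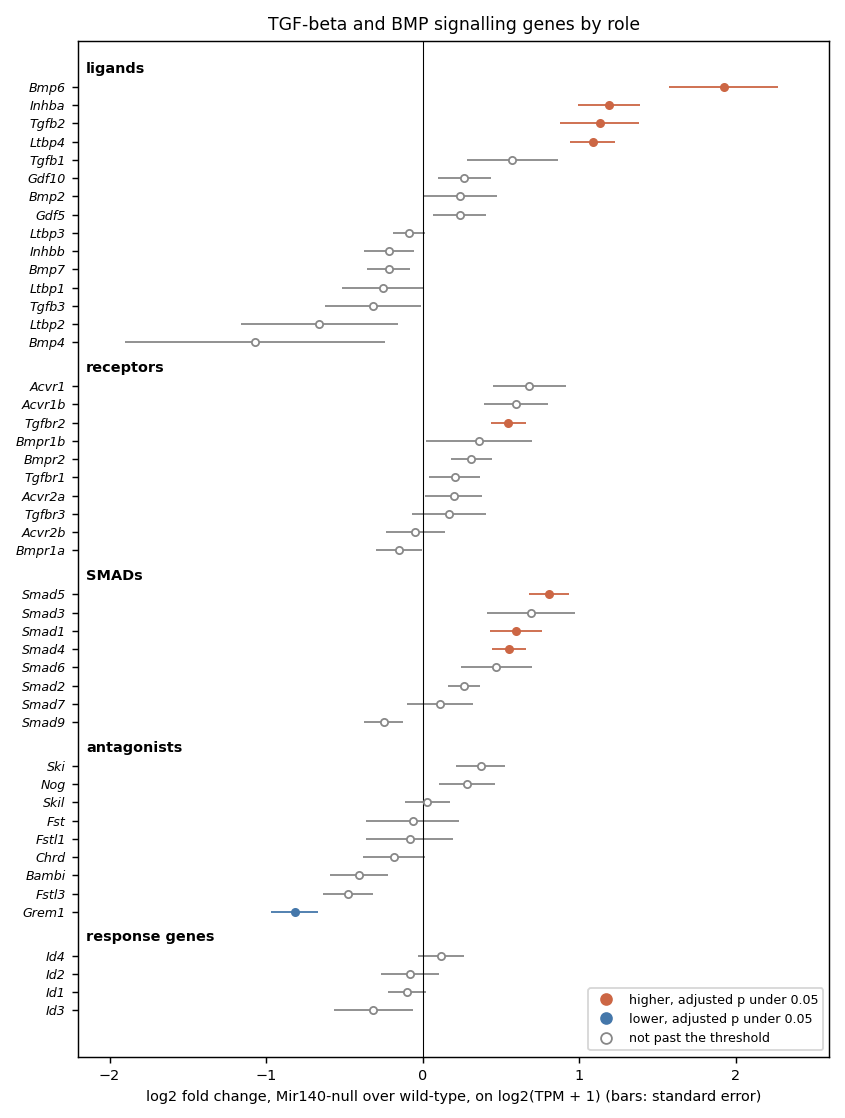
Log2 fold change of each tested gene, *Mir140*-null over wild-type on the log2(TPM + 1) scale, by role; points are limma estimates and bars their standard error. Colours mark the 8 up-regulated genes and 1 down-regulated gene at an adjusted p under 0.05, with *Bmp6* farthest to the right at 1.92 and the 4 *Id* genes between -0.31 and 0.12.

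Among the ligands the largest log2FC was that of *Bmp6* (ENSMUSG00000039004, chr13:38345107-38500302, plus strand), a BMP made by hypertrophic chondrocytes. It was measured at 10.1, 21.5, 21.04 and 18.85 TPM in wild-type replicates 1 to 4, and 106, 90.2, 39.3 and 56.7 TPM in *Mir140*-null replicates 1 to 4. Each *Mir140*-null library exceeded each wild-type library, and the libraries labelled *Mir140*-null replicates 1 and 2 were the highest. The mean rose from 17.9 ± 5.295 to 73.1 ± 30.5 TPM (SD, n = 4), log2FC 1.92 ± 0.35 (SE, limma, Benjamini-Hochberg adjusted p = 0.0135). It was called with each single library left out. Without *Mir140*-null replicates 1 and 2 its log2FC was 1.41 (limma adjusted p = 0.0703).

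*Bmp2*, the chondrogenic BMP published as a miR-140 target, was measured at 42.2, 22.5, 23.1 and 31.6 TPM in wild-type replicates 1 to 4, and 42.8, 40.5, 26.3 and 30.2 TPM in *Mir140*-null replicates 1 to 4. The genotypes overlapped, and its log2FC of 0.24 did not pass the limma threshold (Benjamini-Hochberg adjusted p = 0.514). It was -0.03 without *Mir140*-null replicates 1 and 2. Of the summed TPM of *Bmp2*, *Bmp4*, *Bmp6* and *Bmp7*, *Bmp6* made up 14.3% to 42.6% in wild-type and 53.4% to 70.2% in *Mir140*-null libraries, and *Bmp2* 40.7% to 59.4% and 28.3% to 35.8%. The 4 genes summed to 50.5 to 71.1 TPM (wild-type) and 73.6 to 151 TPM (*Mir140*-null). *Bmp7* (log2FC -0.22), *Gdf5* (0.24), which marks developing joints, and *Gdf10* (0.27) were at 6.71 TPM or less and were not called by limma (adjusted p from 0.299 to 0.357).

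*Inhba* (ENSMUSG00000041324, chr13:16011851-16031621, plus strand) encodes the beta A subunit of activin A and inhibin A. Its values were 17.9, 36.6, 28.4 and 29.9 TPM in wild-type replicates 1 to 4, and 65.8, 59.7, 59.1 and 70.9 TPM in *Mir140*-null replicates 1 to 4. The genotypes did not overlap, and the *Mir140*-null libraries lay close together. Mean expression rose from 28.2 ± 7.71 to 63.9 ± 5.58 TPM (SD, n = 4), log2FC 1.19 ± 0.20 (SE, limma, Benjamini-Hochberg adjusted p = 0.0109). It was called under all 17 of these settings, and its log2FC without *Mir140*-null replicates 1 and 2 was 1.22 (limma adjusted p = 0.0662). *Inhbb*, the beta B subunit, was at 1.11 TPM or less in every library and was not called (log2FC -0.21).

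*Tgfb2* (ENSMUSG00000039239, chr1:186622792-186705989, minus strand), 1 of the 3 TGF-beta ligands, had 40.8, 94.75, 61.9 and 75.9 TPM in wild-type replicates 1 to 4, and 156.5, 173, 115 and 139 TPM in *Mir140*-null replicates 1 to 4. All 4 *Mir140*-null libraries lay above the wild-type libraries, with wild-type replicate 2 and *Mir140*-null replicate 3 the closest. On average it rose from 68.3 ± 22.8 to 146 ± 25.0 TPM (SD, n = 4), log2FC 1.13 ± 0.25 (SE, limma, Benjamini-Hochberg adjusted p = 0.0233). The call was lost without wild-type replicate 3 (limma adjusted p = 0.0609), *Mir140*-null replicate 1 (0.0558) or *Mir140*-null replicate 2 (0.0633), and without both of the latter the log2FC was 0.94 (limma adjusted p = 0.142).

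*Tgfb1* was measured at 53.2, 101, 54.7 and 90.4 TPM in wild-type replicates 1 to 4, and 162, 116.5, 77.3 and 91.0 TPM in *Mir140*-null replicates 1 to 4, with overlap of the genotypes (log2FC 0.57, limma adjusted p = 0.206). *Tgfb3*, the least abundant of the 3, had 13.75, 10.1, 14.7 and 12.3 TPM in wild-type replicates 1 to 4, and 5.53, 7.59, 15.7 and 14.1 TPM in *Mir140*-null replicates 1 to 4. It was lowest in the libraries labelled *Mir140*-null replicates 1 and 2, and its log2FC of -0.32 became 0.23 without them. *Tgfb2* made up 37.8% to 47.1% of the TPM of the 3 ligands in wild-type and 48.3% to 58.3% in *Mir140*-null libraries, while *Tgfb1* made up 41.7% to 50.6% and 37.2% to 50.0%. In wild-type libraries *Tgfb1* and *Tgfb2* had overlapping levels, at 74.9 ± 24.6 and 68.3 ± 22.8 TPM (SD, n = 4).

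Latent TGF-beta binding proteins differed among themselves. *Ltbp4* (ENSMUSG00000040488, chr7:27305136-27337692, minus strand), which also takes part in elastic fibre assembly, was measured at 44.9, 35.96, 49.5 and 49.1 TPM in wild-type replicates 1 to 4, and 104, 78.0, 103 and 99.75 TPM in *Mir140*-null replicates 1 to 4. Every *Mir140*-null library was above every wild-type library, with *Mir140*-null replicate 2 the lowest of its group. The mean increased from 44.9 ± 6.28 to 96.3 ± 12.35 TPM (SD, n = 4), log2FC 1.09 ± 0.14 (SE, limma, Benjamini-Hochberg adjusted p = 0.00619). It was called under each of the 17 settings and without *Mir140*-null replicates 1 and 2, where its log2FC was 1.17 (limma adjusted p = 0.0280). *Ltbp3* averaged 64.5 ± 3.42 TPM (wild-type) and 60.8 ± 6.19 TPM (*Mir140*-null, SD, n = 4) and was not called (log2FC -0.09), nor was *Ltbp1* (-0.25). The share of *Ltbp4* in the TPM of the 4 binding proteins was 22.8% to 29.1% in wild-type and 42.5% to 58.1% in *Mir140*-null libraries.

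**Figure D2:**
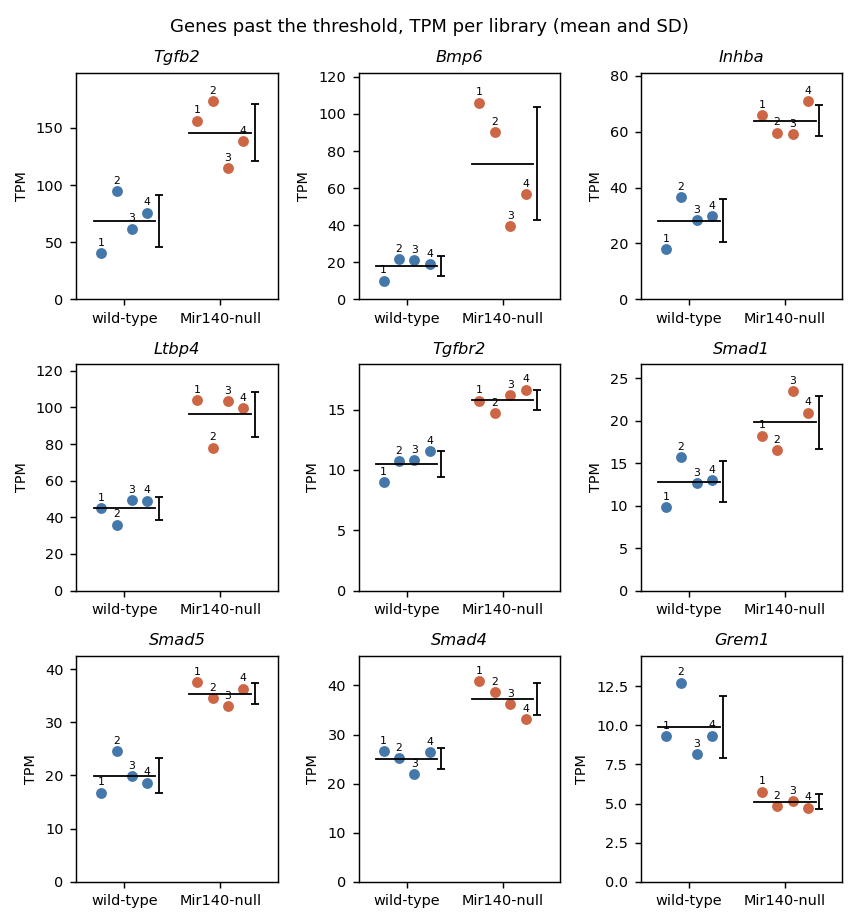
TPM of the 9 genes past the threshold in each library, wild-type (blue) and *Mir140*-null (orange), numbered by replicate; horizontal lines are means and bars the SD of 4 libraries. In all 9 panels the genotypes do not overlap, and the *Mir140*-null libraries are lower only in *Grem1*, at 4.74 to 5.76 TPM against 8.14 to 12.7 TPM.

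Among the receptors *Tgfbr2* (ENSMUSG00000032440, chr9:116084293-116175360, minus strand), the type II receptor that binds TGF-beta, was the gene called. Its values were 9.005, 10.75, 10.8 and 11.55 TPM in wild-type replicates 1 to 4, and 15.7, 14.7, 16.2 and 16.65 TPM in *Mir140*-null replicates 1 to 4. Both groups were tight and did not overlap. Mean TPM rose from 10.5 ± 1.08 to 15.8 ± 0.834 TPM (SD, n = 4), log2FC 0.55 ± 0.11 (SE, limma, Benjamini-Hochberg adjusted p = 0.0180). The call was lost without wild-type replicate 3 (limma adjusted p = 0.0503), and without *Mir140*-null replicates 1 and 2 the log2FC was 0.60 (limma adjusted p = 0.0646). *Tgfbr1*, its type I partner, averaged 9.74 ± 0.911 TPM (wild-type) and 11.5 ± 2.45 TPM (*Mir140*-null, SD, n = 4), which did not pass the test (log2FC 0.20, limma adjusted p = 0.404).

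*Acvr1*, a type I receptor for BMP ligands, was the most abundant receptor, at 25.0, 55.0, 43.1 and 50.8 TPM in wild-type replicates 1 to 4, and 64.8, 62.0, 66.75 and 77.8 TPM in *Mir140*-null replicates 1 to 4. All 4 *Mir140*-null libraries were higher than the wild-type libraries, in which replicate 1 was far below the others. The log2FC of 0.68 missed the threshold of limma (adjusted p = 0.0779). *Acvr1b*, a type I receptor for activin, likewise showed no overlap (wild-type 1.79 to 4.25 TPM, *Mir140*-null 4.42 to 5.66 TPM) and missed the threshold (log2FC 0.60, limma adjusted p = 0.0768). It passed without wild-type replicate 2, the highest of its group (log2FC 0.74, limma adjusted p = 0.0469).

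*Tgfbr3* encodes betaglycan, a co-receptor that presents TGF-beta2. It was measured at 9.45, 22.4, 17.4 and 17.3 TPM in wild-type replicates 1 to 4, and 16.7, 18.9, 16.6 and 20.25 TPM in *Mir140*-null replicates 1 to 4. The genotypes overlapped (log2FC 0.17), and the sign changed without wild-type replicate 1 (-0.06). The remaining receptors, *Bmpr1a*, *Bmpr1b*, *Bmpr2*, *Acvr2a* and *Acvr2b*, had log2FC between -0.15 and 0.36, and none was called. In wild-type libraries the receptor levels, in order, were 43.5 ± 13.3 TPM for *Acvr1*, 16.7 ± 5.35 for *Tgfbr3*, 14.6 ± 1.51 for *Bmpr1a*, 10.5 ± 1.08 for *Tgfbr2* and 9.74 ± 0.911 for *Tgfbr1* (SD, n = 4). The ranges of *Tgfbr3* and *Bmpr1a* overlapped, as did those of *Tgfbr2* and *Tgfbr1*. *Bmpr1b*, needed for cartilage growth, had a wide wild-type range of 2.13 to 7.47 TPM, and *Acvr2b* was at 0.775 TPM or less.

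Both SMADs that carry most of the BMP-activated SMAD mRNA were up-regulated. *Smad5* (ENSMUSG00000021540, chr13:56703010-56742377, plus strand) was measured at 16.8, 24.5, 19.9 and 18.65 TPM in wild-type replicates 1 to 4, and 37.6, 34.6, 33.1 and 36.4 TPM in *Mir140*-null replicates 1 to 4. The genotypes did not overlap, and the *Mir140*-null libraries lay close together. Expression increased from 20.0 ± 3.30 to 35.4 ± 1.996 TPM (SD, n = 4), log2FC 0.81 ± 0.13 (SE, limma, Benjamini-Hochberg adjusted p = 0.00936). This call held under all 17 settings, and without *Mir140*-null replicates 1 and 2 the log2FC was 0.78 (limma adjusted p = 0.0595).

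*Smad1* (ENSMUSG00000031681, chr8:79338395-79399518, minus strand) had 9.82, 15.7, 12.7 and 13.0 TPM in wild-type replicates 1 to 4, and 18.2, 16.5, 23.5 and 20.9 TPM in *Mir140*-null replicates 1 to 4. The highest wild-type library was just under the lowest *Mir140*-null library. The mean rose from 12.8 ± 2.41 to 19.8 ± 3.08 TPM (SD, n = 4), log2FC 0.60 ± 0.17 (SE, limma, Benjamini-Hochberg adjusted p = 0.0449). Its call held in 1 of the 8 fits that left out a library, the one without wild-type replicate 2, and the limma adjusted p in the other 7 ran from 0.0616 to 0.0962. Without *Mir140*-null replicates 1 and 2 the log2FC was 0.76 (limma adjusted p = 0.0776). *Smad9*, the other BMP-activated SMAD, was at 0.961 TPM or less in every library (log2FC -0.25, not called).

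*Smad4*, the SMAD shared by both branches, was measured at 26.7, 25.2, 21.95 and 26.35 TPM in wild-type replicates 1 to 4, and 40.9, 38.7, 36.2 and 33.2 TPM in *Mir140*-null replicates 1 to 4. The genotypes did not overlap. Mean levels rose from 25.05 ± 2.17 to 37.2 ± 3.33 TPM (SD, n = 4), log2FC 0.55 ± 0.11 (SE, limma, Benjamini-Hochberg adjusted p = 0.0168). The call was lost without wild-type replicate 3 (limma adjusted p = 0.0504) or *Mir140*-null replicate 2 (0.0512), and without *Mir140*-null replicates 1 and 2 the log2FC was 0.46 (limma adjusted p = 0.0911).

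*Smad3*, activated by TGF-beta and a published miR-140 target, was the most abundant SMAD over all 8 libraries, at 21.4, 46.9, 33.5 and 41.1 TPM in wild-type replicates 1 to 4, and 38.15, 61.2, 55.8 and 76.3 TPM in *Mir140*-null replicates 1 to 4. The lowest *Mir140*-null library, replicate 1, lay within the wild-type range, and wild-type replicate 1 was the lowest of all. Its log2FC of 0.69 (standard error 0.28) did not pass the threshold (limma with Benjamini-Hochberg adjusted p = 0.122), and it was positive under each of the 17 settings, from 0.47 to 0.88. *Smad2*, which shares its activating receptors, averaged 15.6 ± 1.21 TPM (wild-type) and 18.9 ± 1.32 TPM (*Mir140*-null, SD, n = 4), with a log2FC of 0.27 that was not called (limma adjusted p = 0.116). Summed over *Smad1*, *Smad5*, *Smad9*, *Smad2* and *Smad3*, the TPM ran from 63.8 to 105 in wild-type and from 114 to 152 in *Mir140*-null libraries. The inhibitory SMADs, which are themselves induced by the pathway, were not called. *Smad6* had a log2FC of 0.47 and *Smad7* of 0.11, which changed sign without *Mir140*-null replicate 3 (-0.04) and after quantile normalization (-0.02).

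**Figure D3:**
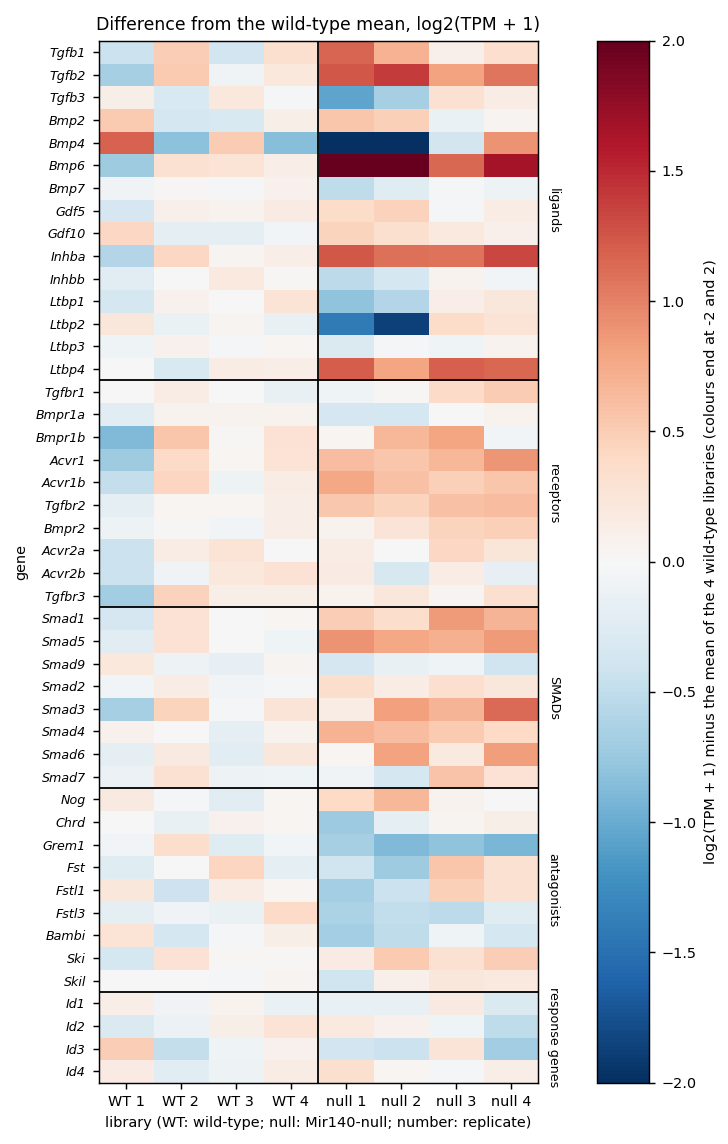
Difference of log2(TPM + 1) from the mean of the 4 wild-type libraries, for each tested gene (rows, by role) in each library (columns, WT for wild-type and null for *Mir140*-null). Red is higher and blue lower, and colours end at -2 and 2; *Bmp6*, *Inhba*, *Ltbp4* and *Smad5* are red in all 4 *Mir140*-null columns, while *Bmp4*, *Ltbp2* and *Tgfb3* are blue only in replicates 1 and 2 or most strongly there.

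Of the antagonists, *Grem1* (ENSMUSG00000074934, chr2:113746164-113758646, minus strand), which holds BMP ligands away from their receptors, was called. It was measured at 9.31, 12.7, 8.14 and 9.35 TPM in wild-type replicates 1 to 4, and 5.76, 4.82, 5.15 and 4.74 TPM in *Mir140*-null replicates 1 to 4. All *Mir140*-null values were under all wild-type values. The mean fell from 9.885 ± 1.98 to 5.12 ± 0.465 TPM (SD, n = 4), log2FC -0.82 ± 0.15 (SE, limma, Benjamini-Hochberg adjusted p = 0.0140). It was called with each single library left out, and without *Mir140*-null replicates 1 and 2 the log2FC was -0.86 (limma adjusted p = 0.0625). *Fstl3*, a follistatin-like antagonist of activin, did not overlap either (wild-type 1.40 to 2.56 TPM, *Mir140*-null 0.755 to 1.29 TPM) but missed the threshold (log2FC -0.47, limma adjusted p = 0.0759).

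*Fstl1*, a secreted follistatin-like protein, was the most abundant of all 47 genes, at 282, 181, 266.5 and 247 TPM in wild-type replicates 1 to 4, and 149, 179, 334 and 298 TPM in *Mir140*-null replicates 1 to 4. The libraries labelled *Mir140*-null replicates 1 and 2 were the lowest and replicates 3 and 4 the highest. Its log2FC was -0.08 with all libraries and 0.39 without replicates 1 and 2. *Skil*, which encodes the nuclear co-repressor SnoN, had 52.7, 53.5, 51.5 and 54.9 TPM in wild-type replicates 1 to 4, and 40.1, 56.8, 62.4 and 61.0 TPM in *Mir140*-null replicates 1 to 4. Wild-type libraries hardly varied, and *Mir140*-null replicate 1 was the lowest of the 8 (log2FC 0.03). *Ski*, its relative, had a log2FC of 0.37 (limma adjusted p = 0.132). Noggin (*Nog*, 0.28), chordin (*Chrd*, -0.18), follistatin (*Fst*, -0.06) and the decoy receptor *Bambi* (-0.41) were not called and were at 8.51 TPM or less.

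The *Id* genes, which encode inhibitors of DNA binding, gave no call. *Id3*, the highest of them, was measured at 347, 178, 232 and 262 TPM in wild-type replicates 1 to 4, and 189.7, 183.5, 295 and 152.5 TPM in *Mir140*-null replicates 1 to 4. The ranges of the genotypes overlapped (log2FC -0.31, standard error 0.25, limma adjusted p = 0.412). *Id2* had 50.9, 57.7, 68.2 and 76.1 TPM in wild-type replicates 1 to 4, and 71.5, 66.25, 58.8 and 43.85 TPM in *Mir140*-null replicates 1 to 4, also overlapping (log2FC -0.08). *Id1* averaged 57.0 ± 4.70 TPM (wild-type) and 53.4 ± 7.83 TPM (*Mir140*-null, SD, n = 4, log2FC -0.10), and *Id4* averaged 4.21 ± 0.685 and 4.64 ± 0.607 TPM (log2FC 0.12). The 4 genes summed to 293 to 465 TPM (wild-type) and 247 to 423 TPM (*Mir140*-null). An adjusted p over the threshold does not show that the levels are equal: with 4 libraries a genotype, the standard errors of these log2FC were 0.12 to 0.25.

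**Figure D4:**
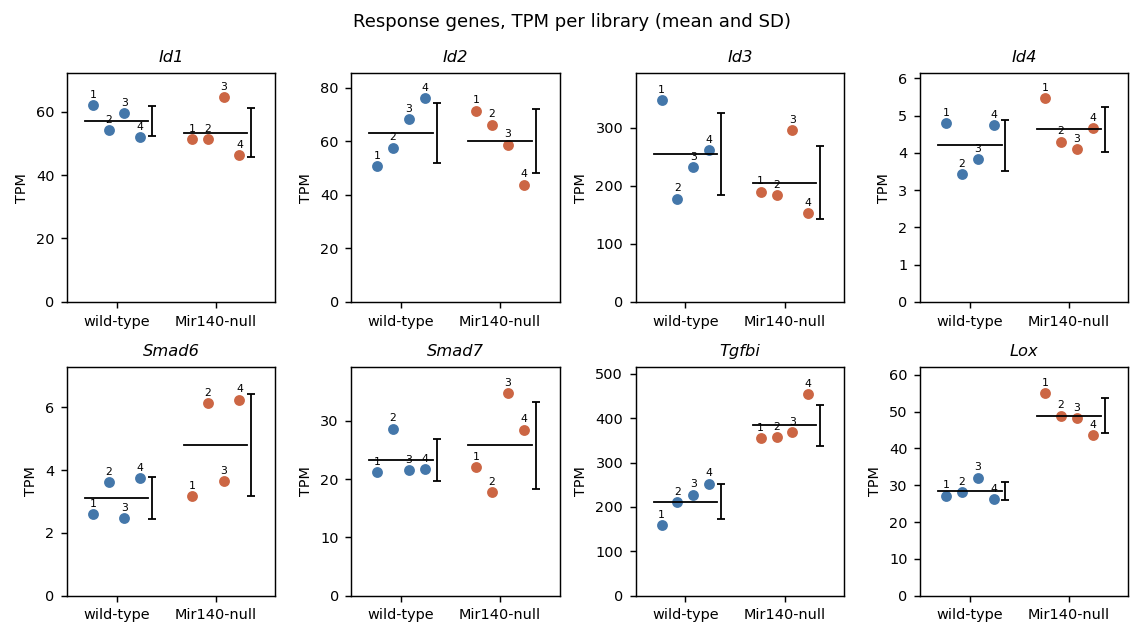
TPM in each library, numbered by replicate, for the 4 *Id* genes, the pathway-induced inhibitors *Smad6* and *Smad7*, and 2 other response genes, with means and SD of 4 libraries. *Id1* to *Id4* overlap between genotypes, whereas *Tgfbi* (356 to 454 TPM against 158 to 253 TPM) and *Lox* are higher in all 4 *Mir140*-null libraries.

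Beyond the 47 genes, a list of 91 other genes of both pathways gave 71 that passed the filter, of which 12 (16.9%) were up-regulated and 4 (5.63%) down-regulated, beside 10.5% and 6.40% of all tested genes. By part of the pathway the numbers called higher and lower were 3 and 0 of 9 for ligand processing and matrix storage, 2 and 1 of 8 for receptors and co-receptors, and 2 and 2 of 10 for extracellular antagonists. They were 1 and 0 of 20 for SMAD partners, 4 and 1 of 16 for response genes and 0 and 0 of 8 for other ligands. Of these 8 ligands 5 had an unadjusted limma p under 0.05, a larger share than the 33.9% of all tested genes. Their median log2FC was -0.38, with 3 positive and 5 negative values among the 8. Without *Mir140*-null replicates 1 and 2, 3 of the 16 called genes were still called, *Lox* and *Emilin1* among them. All 16 kept their direction, which could not change because their genotypes did not overlap.

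Among the response genes, *Tgfbi*, a matrix protein induced by TGF-beta, rose from 212 ± 40.0 to 384 ± 46.8 TPM (SD, n = 4), log2FC 0.87 ± 0.16 (SE, limma, Benjamini-Hochberg adjusted p = 0.0134). *Lox*, the lysyl oxidase that cross-links collagen and elastin, rose from 28.4 ± 2.54 to 48.9 ± 4.705 TPM (SD, n = 4), log2FC 0.76 ± 0.11 (SE, limma, Benjamini-Hochberg adjusted p = 0.00758).

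Genes that handle latent TGF-beta in the matrix were also among those called. *Itgav*, the integrin alpha V subunit that binds the latent complex, rose from 21.3 ± 3.86 to 47.8 ± 12.0 TPM (SD, n = 4), and *Emilin1*, which limits TGF-beta processing, from 54.7 ± 2.245 to 171 ± 81.0 TPM (SD, n = 4). Their log2FC were 1.11 and 1.51 (limma with Benjamini-Hochberg adjusted p = 0.0135 and 0.0163). Both genes were highest in *Mir140*-null replicates 1 and 2, without which the log2FC were 0.81 and 0.96 (limma adjusted p = 0.0639 and 0.0151). *Bmper*, a modulator of BMP ligands, rose from 2.265 ± 0.522 to 4.69 ± 0.239 TPM (SD, n = 4), with a log2FC of 0.81 (limma adjusted p = 0.0132). Down-regulated genes included *Twsg1*, a BMP-binding protein (log2FC -0.59, limma adjusted p = 0.0307), *Dcn*, the proteoglycan decorin that binds TGF-beta (-0.47, 0.0351), and *Tdgf1*, a co-receptor at 2.01 TPM or less (-0.85, 0.0397). Calls of *Twsg1*, *Dcn* and *Tdgf1* held in 3, 1 and 2 of the 8 fits that left out a library.

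The libraries that stood apart bore on some of the 46 genes, about as often as on all tested genes. In 11 of the 46 both *Mir140*-null replicates 1 and 2 lay below the other 6 libraries, and in 7 they lay above. These shares were close to the 21.1% and 13.0% of all tested genes. The 11 were *Tgfb3*, *Bmp4*, *Bmp7*, *Inhbb*, *Ltbp1*, *Ltbp2*, *Bmpr1a*, *Chrd*, *Fst*, *Fstl1* and *Bambi*, none of which was called. The 7 were *Tgfb1*, *Tgfb2*, *Bmp6*, *Gdf5*, *Acvr1b*, *Smad4* and *Nog*, of which 3 were called. *Bmp4*, a BMP of perichondrium and mesenchyme, was measured at 15.7, 3.16, 9.49 and 3.07 TPM in wild-type replicates 1 to 4, and 0.178, 0.630, 4.73 and 12.8 TPM in *Mir140*-null replicates 1 to 4. It was lowest in *Mir140*-null replicates 1 and 2 and within the wild-type range in replicates 3 and 4, so that its log2FC was -1.07 with all libraries (limma adjusted p = 0.396) and 0.27 without replicates 1 and 2.

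*Ltbp2*, a binding protein of elastic tissues, had 51.6, 39.6, 45.4 and 39.3 TPM in wild-type replicates 1 to 4, and 15.8, 11.3, 57.0 and 52.8 TPM in *Mir140*-null replicates 1 to 4. Its log2FC turned from -0.66 to 0.32 without those 2 libraries. Marker sums of several other cell types were also low in both libraries. The osteoblast markers summed to 53.5 and 54.7 TPM in them and to 811 to 1568 TPM in the other 6, endothelial markers to 7.653 and 5.25 TPM against 14.8 to 62.6 TPM, erythroid markers to 432 and 256 TPM against 646 to 1854 TPM, and macrophage markers to 17.2 and 16.7 TPM against 21.7 to 39.5 TPM. Most of the osteoblast sum was *Col1a1* and most of the macrophage sum *Cd68* in every library, so these sums largely follow single genes. In 5 of the 8 fibroblast and perichondrium markers (*Col3a1*, *Dpt*, *Postn*, *Thy1* and *Pi16*) both libraries lay below the other 6, while *Pdgfra* was up-regulated (16.5 ± 3.38 and 34.2 ± 2.06 TPM, SD, n = 4). None of the 8 was at 0 in any library. *Col3a1* was at 100 and 104 TPM in the libraries labelled *Mir140*-null replicates 1 and 2 and at 880 to 1791 TPM in the other 6, and *Col1a1*, an osteoblast and fibroblast collagen, at 47.9 and 50.1 TPM against 793 to 1544 TPM. The part of these cells in the differences was not tested. The 9 called genes did not overlap between genotypes, so their direction in *Mir140*-null replicates 3 and 4 was bound to be the same. Fibroblast and perichondrium marker sums of these libraries, 2742 and 1789 TPM, were within the wild-type range of 1445 to 3022 TPM. Wild-type replicate 1 was the lowest of its genotype in 27 of the 46 genes. The same count was not made over all tested genes, so it is not known to be particular to these.

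**Figure D5:**
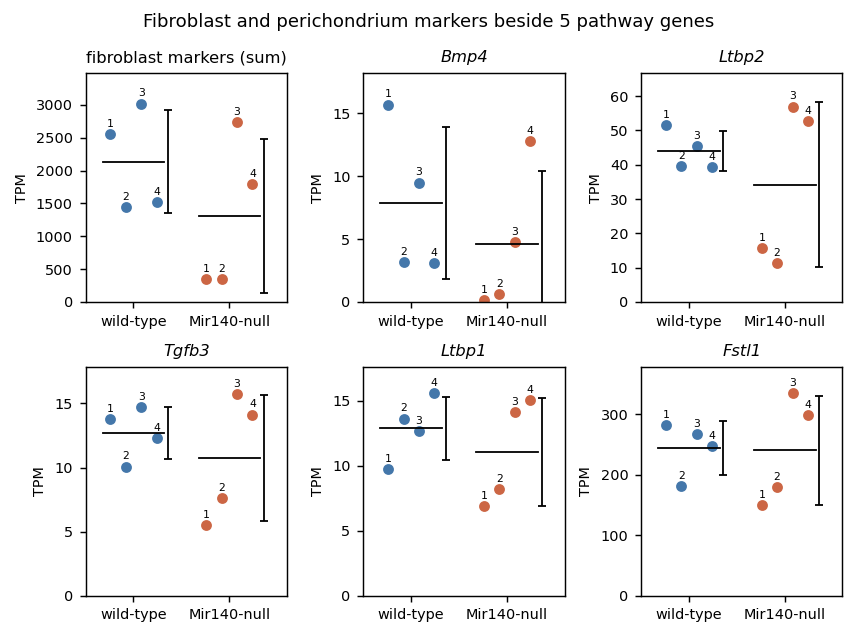
Summed TPM of 8 fibroblast and perichondrium markers, and TPM of 5 pathway genes, in each library (numbered by replicate), with means and SD of 4 libraries; SD bars that reach below 0 end at the axis. The libraries labelled *Mir140*-null replicates 1 and 2 are the lowest in each panel, at 345 and 348 TPM for the marker sum, and replicates 3 and 4 lie within or near the wild-type range.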

How the data were processed

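RNA-seq was made from 8 samples of costal chondrocytes, 4 labelled wild-type and 4 labelled *Mir140*-null. Per the study's methods, poly(A) RNA was made into stranded libraries, sequenced as single-end reads and quantified with Salmon (version not given in the sources used here) against the mm10 transcriptome. FastQC 0.11.7 and DESeq2 are also named in the submitters' processing notes. The deposited values are TPM per Ensembl gene identifier. The factor correction and count test that the authors ran later are not in these values. Groups came from the labels.

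Identifiers were named from GENCODE M21 (GRCm38), which held 99.8% of the 52325. The 17177 genes that reached 0.5 TPM in 4 or more libraries were tested on log2(TPM + 1) with limma 3.58.1 (R 4.3.3, moderated with a mean trend), wild-type against *Mir140*-null, with Benjamini-Hochberg adjustment over all of them and a threshold of 0.05. A log2FC on this scale understates changes of low genes. The script was tested on simulated data. Tables, figures and 3′UTR searches were made with Python 3.11.15, pandas 2.3.3, numpy 2.4.6, scipy 1.17.1 and matplotlib 3.10.9. Because TPM keep no counts, no counting interval is given.

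The 47 genes, the 91 other pathway genes and the marker lists were chosen with earlier results of these data known. Values per library are given for called genes, for *Smad3* and *Bmp2*, and for the genes with the highest mean in each role. *Tgfb3*, *Bmp4* and *Ltbp2* were added after their values were seen. Of the other pathway genes, up to 5 called in each direction, by smallest p, are named (some items are not reported here). Alternatives were another pseudocount (0.1), no filter, a mean of at least 5 TPM, median-ratio scaling, rescaling without mitochondrial genes, quantile normalization, a replicate block, 1 factor of unwanted variation (RUVr), sample quality weights, each library left out, and the first 1000 bases of the 3′UTR. Leaving out both *Mir140*-null replicates 1 and 2 was chosen after seeing the data. Sites of miR-140-5p were not searched for.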

Additional observations from a re-analysis of the deposited data

Results flagged for a closer look

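Of 124 groups of 4 libraries (62 genes), 6 held a library whose gap to the nearest other exceeded Dixon's critical value as a share of the group's range, and chance gives about 1 in 20 such groups. *Ltbp4* was lowest in *Mir140*-null replicate 2, at 78.01 TPM, and at 99.75 to 104.0 TPM in the other 3 of its group, all above the wild-type libraries. *Bmpr1a*, a type I BMP receptor, was at 12.31 TPM in wild-type replicate 1 and at 15.32 to 15.37 TPM in the others. In wild-type replicate 2, *Smad2* was at 17.38 TPM (others 14.9 to 15.1 TPM) and *Smad7* at 28.65 TPM (others 21.21 to 21.69 TPM). *Fstl3* was at 2.559 TPM in wild-type replicate 4 and at 1.402 to 1.576 TPM in the other wild-type libraries. *Tgfbi* was at 453.6 TPM in *Mir140*-null replicate 4 and at 355.9 to 368.7 TPM in the others.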

How the results depend on the processing

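All 9 called genes kept their sign in each setting run, and 31 of the 46 tested genes did so. For the 9, fits that only left libraries out could not change the sign, because the genotypes did not overlap. With a replicate block 5 of the 46 were up-regulated and 0 down-regulated: *Bmp6*, *Tgfbr2*, *Smad1*, *Smad4* and *Grem1* were no longer called (limma adjusted p from 0.0515 to 0.0899) and *Smad3* was (0.0453). The block left 671 higher and 454 lower of all genes, and 6 and 1 of the other pathway genes. Same-numbered libraries did not deviate together (correlations of -0.00911 to 0.0688, with 2 libraries closest to their own number). These values show no pairing by number, but with 4 libraries a genotype they cannot exclude shared litters or batches. Leaving out 1 library at a time, between 4 and 9 of the 46 were up-regulated and always 1 down-regulated, as were 5 to 11 and 1 to 4 of the other pathway genes, and 755 to 1551 and 337 to 1251 of all genes. Without *Mir140*-null replicates 1 and 2 the counts were 1 and 0, 2 and 1, and 386 and 234, with fewer samples and genes. Without a filter *Tgfb2* (limma adjusted p = 0.0528) and *Smad1* (0.0842) were not called, and 7 and 1 other pathway genes and 977 and 539 of all genes were. A mean of at least 5 TPM left 605 genes down-regulated, and RUVr gave 2016. The causes of these shifts were not tested, apart from the number of genes or samples that the setting itself changes. With 3′UTRs cut to 1000 bases, the annotated form of miR-140-3p had a site in 8 genes and the shifted form likewise in 8.

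Signs changed only in genes that were not called. Without *Mir140*-null replicates 1 and 2 the log2FC became 0.23 for *Tgfb3*, -0.034 for *Bmp2*, 0.27 for *Bmp4*, 0.0087 for *Inhbb*, 0.18 for *Ltbp1*, 0.32 for *Ltbp2*, 0.041 for *Bmpr1a*, 0.088 for *Chrd*, 0.43 for *Fst* and 0.39 for *Fstl1*. Quantile normalization gave 0.13 for *Acvr2b*, -0.018 for *Smad7*, 0.0865 for *Fst* and -0.13 for *Skil*, and sample weights 0.038 for *Fst* and 0.10 for *Fstl1*. With single libraries left out the log2FC ran from -0.189 to 0.045 for *Acvr2b*, from -0.064 to 0.324 for *Tgfbr3*, from -0.0435 to 0.266 for *Smad7*, from -0.267 to 0.155 for *Fst*, from -0.267 to 0.118 for *Fstl1*, from -0.035 to 0.173 for *Skil*, and from -0.1755 to 0.062 for *Id2*. TPM carry no depth, so how far low genes such as *Acvr2b* and *Inhbb* are limited by counting could not be assessed.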
